A study of Mus musculus with 8 samples.

Results

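Macro_2 is a macrophage cluster that the authors named among leukocytes sorted from the brain and its coverings of mice with and without experimental stroke. Its members are the cells whose cluster in the deposited annotation is Macro_2, and they number 3840 of 32457 annotated cells in 8 single-cell RNA-seq libraries. The libraries came from adult male C57BL/6 mice. Ischemia was induced by transient occlusion of the middle cerebral artery (MCAO), and the libraries labelled control came from mice without stroke. The study's text calls these controls naive in one place and sham-operated in another, so a change against control may include effects of surgery and anaesthesia. Brain parenchyma was sampled in controls (1 library), 24 h (2 libraries) and 72 h (1 library) after MCAO, and pia and dura each in controls and at 24 h (1 library each). Leukocytes in the circulation were labelled by an intravenous anti-CD45 antibody and left out of the sort, so the libraries hold CD45+ cells that the labelling antibody had not reached. Tissue was pooled from several mice. The study states a total per compartment, pooled over repeated experiments, and the number of mice in each library is not given in the sources used here. A label of the control pia library, its title, gives brain parenchyma as the tissue where the others give pia, which was followed here.

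Macrophages at the borders of the brain include long-lived cells that carry Mrc1 (the mannose receptor), Lyve1 and Pf4, and cells that load peptides on MHC class II molecules for display to CD4+ T cells. MHC class II is an alpha and a beta chain (in C57BL/6 mice H2-Aa with H2-Ab1), which is assembled on the invariant chain Cd74, loaded with the help of H2-DM, and transcribed under the transactivator Ciita. CCR2 is a chemokine receptor by which monocytes leave the blood, and many MHC class II-positive macrophages of border tissues derive from such monocytes.

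A Macro_2 cell held a median of 1661 UMIs (unique molecular identifiers, each 1 captured transcript) in control brain, 2859 and 4790 in the 24 h brain libraries 1 and 2, and 3110 in 72 h brain. The median was 2286 in control pia, 1954 in 24 h pia, 2563.5 in control dura and 2435 in 24 h dura. Expression levels are given in CPM: the UMIs of a gene summed over the Macro_2 cells of a library, per 1000000 UMIs of these cells. Over the genes counted in all 8 libraries, the sums held 61923 UMIs in control brain, where there were 35 cells, and 2403011 in control pia. The smallest level that 3 UMIs give thus ranged from 48.4 CPM in control brain to 1.25 CPM in control pia. Intervals on single levels are exact 95% Poisson intervals and cover counting error alone.

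Some libraries stood apart before any comparison was made. Brain 24 h library 2 and the 72 h library were counted on a list of 31053 genes and the other 6 on 32285 genes. Pairs among the 6 libraries shared 12 to 43 cell barcodes, the 2 libraries of the shorter list shared 13, and a pair with 1 library of each list shared 0 to 2. Of barcodes shared between libraries of the longer list, 4 belonged to Macro_2 in both. The study's library table gives another kit version to 72 h brain and 24 h dura than to the rest. By barcodes 24 h dura went with the 5 others of the longer list (it shared 18 with control dura and 1 with 72 h brain) and brain 24 h library 2 with 72 h brain, to which the table gives another kit. The table and the barcodes thus disagree on both libraries. Brain 24 h library 1 also differed from every other library in the cells themselves: MHC class II UMIs (Cd74, H2-Aa, H2-Ab1 and H2-Eb1) made up under 1% of the UMIs in 14 of its 56 Macro_2 cells, against 1 of 93 in library 2, 1 of 570 at 72 h, 7 of 832 in 24 h pia and 0 in the 3 control libraries and 24 h dura.

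In the sums of each library the label held against its markers. Lyz2 (lysozyme) was at 18491 CPM in control brain, 11823 and 6667 in the 24 h brain libraries, 6116 in 72 h brain, 17666 and 18523 in control and 24 h pia, and 21340 and 18925 in control and 24 h dura. T cells (the cluster Tc) of the same libraries, which serve here as the level that free RNA gives, held 21.5 to 1279 CPM of Lyz2. Apoe (apolipoprotein E) was at 29666 CPM in Macro_2 of control brain, 5362 and 6997 at 24 h, 7120 at 72 h, 37716 and 26394 in pia, and 30696 and 38170 in dura, against 0 to 3742 CPM in Tc. In the sums, both markers were thus far above the free-RNA level in every library, and lower in the 3 brain libraries after MCAO than in the other 5. Of these 3, 24 h library 2 and 72 h are those of the shorter gene list, where MCAO and library cannot be told apart. Genes of MHC class I presentation summed lower in Tc there too, at 7118 and 7389 CPM against 12470 to 17526 elsewhere. Not every cell held the markers. Apoe had a UMI in 29 of 35 control brain cells and in 33 of 56 and 61 of 93 at 24 h, and Lyz2 in 33, 46 and 85.

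**Figure D1:**
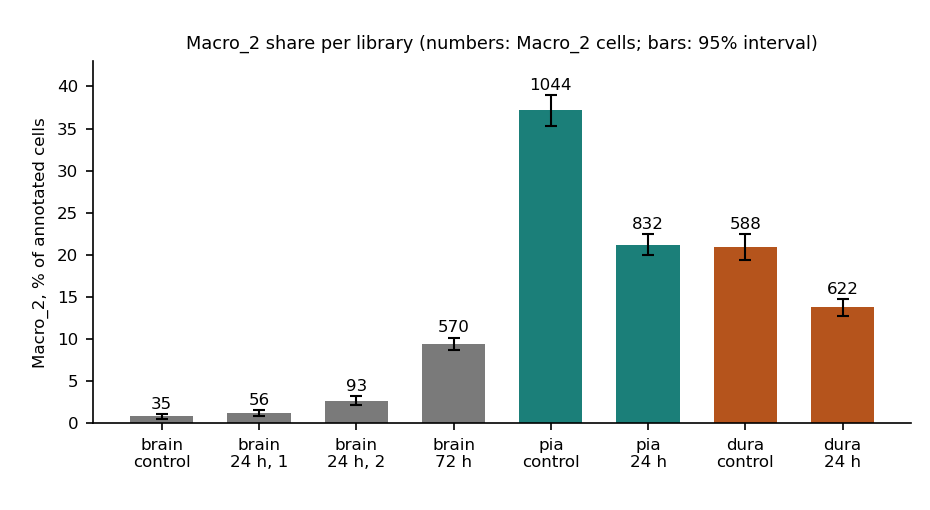
Macro_2 cells as a percentage of all annotated cells in each of the 8 libraries, with exact 95% binomial intervals and the number of Macro_2 cells above each bar. Control pia stands highest at 37.2%, both border tissues are lower at 24 h than in their control, and brain goes from 0.815% in the control to 9.42% at 72 h.

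Macro_2 was the largest cluster of control pia and of control dura and a rare one in control brain. It made up 0.815% (95% interval 0.568 to 1.13) of annotated cells in control brain, 1.22% (0.925 to 1.58) and 2.68% (2.17 to 3.28) in the 24 h brain libraries, and 9.42% (8.70 to 10.2) in 72 h brain. The share was 37.2% (35.4 to 39.0) in control pia against 21.2% (19.9 to 22.5) in 24 h pia, and 20.9% (19.4 to 22.5) in control dura against 13.8% (12.8 to 14.8) in 24 h dura. These differences were not tested, and a share falls whenever other sorted cells become more numerous. Among the macrophage clusters alone (CAM_1, CAM_2, SAMC, Macro_1 and Macro_2) the share was 53.4% and 39.5% in pia, 64.8% and 57.4% in dura, 7.94% in control brain, 4.33% and 19.5% at 24 h and 28.8% at 72 h. Outside the microglia clusters the share was 6.21% in control brain, 3.54% and 6.33% at 24 h and 11.4% at 72 h. In brain the 24 h library 1 was below the control on both of these denominators and above it over all cells.

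MHC class II genes set Macro_2 apart from CAM_1, a cluster to which the study gives a pronounced border-associated phenotype. They were at levels like those of mDC2, a cluster that the authors named type 2 myeloid dendritic cells. These levels are a description with no test, since the clusters were drawn from the same genes. Cd74 was at 94553 CPM in control brain, 52495 and 16889 at 24 h, 18057 at 72 h, 100148 and 83475 in control and 24 h pia, and 99748 and 91781 in control and 24 h dura. The 2 libraries of the shorter gene list had the lowest levels, and mDC2 showed the same split, with 19181 and 15823 CPM in those libraries and 71452 to 118445 in the other 6. H2-Aa was at 15116 CPM in control brain, 8078 and 7000 at 24 h, 9069 at 72 h, 17465 and 11752 in pia, and 18744 and 15331 in dura. H2-Ab1 was at 19766 CPM in control brain, 10339 and 6759 at 24 h, 10713 at 72 h, 18528 and 13142 in pia, and 19196 and 15474 in dura. H2-Eb1 was at 8010 CPM in control brain, 3038 and 6464 at 24 h, 10334 at 72 h, 7900 and 5181 in pia, and 8473 and 6424 in dura. In each of the border tissues all 4 genes were lower at 24 h than in the control, and 24 h brain was below control brain in both libraries. Library 2 of 24 h brain is on the shorter gene list and control brain is not, so MCAO and library cannot be told apart in it. Per cell, the 4 genes together took a median of 14.1% of UMIs in control brain, 6.46% and 3.82% at 24 h and 4.803% at 72 h. The medians were 14.8% and 11.5% in control and 24 h pia and 14.5% and 12.8% in control and 24 h dura.

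Promoters of 2 MHC class II genes are shown, since these genes had the largest ratios between Macro_2 and CAM_1 apart from Retnla, although mDC2 held them at like levels. Both hold the Y box, an element known from MHC class II promoters, which 3 of the 9 genes of the list with a promoter in the table held. The sequences are from RefSeq (GRCm38.p6) and run from 100 bases to 1 base before the annotated start, read in the direction of the gene, with the Y box CTGATTGG in capitals. This motif contains ATTGG, the reverse complement of the CCAAT box.
H2-Aa, chr17:34287824-34287923, minus strand: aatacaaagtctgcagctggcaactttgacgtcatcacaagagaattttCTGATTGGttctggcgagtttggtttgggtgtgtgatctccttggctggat
H2-Eb1, chr17:34305767-34305866, plus strand: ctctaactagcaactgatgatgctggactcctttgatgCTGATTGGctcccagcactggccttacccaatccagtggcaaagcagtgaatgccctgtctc
Searched on both strands over 250 bases before the start, CTGATTGG was found in 3.83% of 32851 promoters. In the MHC class II list of 12 genes the 3 holding the motif were H2-Aa, H2-Eb1 and H2-Oa. A match is a description of the letters in this window and not of a bound factor.

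Across all 8 libraries, 11 genes were at least 4-fold higher in Macro_2 than in CAM_1 of the same library and 2 were at least 4-fold lower, among 5410 genes of at least 50 CPM in 1 of the sums. Ratios are of CPM + 1, and where the lower level was at or near 0 they depend on this pseudocount. With the lower level raised to a floor of 3 UMIs in its place, 8 genes were higher and 1 was lower. Besides MHC class II genes, Gpr141 (median log2 ratio 3.98) and Tnip3 (3.47) were higher on both scales. Retnla (a secreted product of alternatively activated macrophages, 5.68), Flt3 (the receptor for FLT3 ligand, 3.84) and Clec4b1 (3.51) were so with the pseudocount and not with the floor. Retnla reached 355 CPM in control brain, 796 and 86.0 at 24 h, 20.4 at 72 h, 5.83 and 50.5 in pia and 108 and 29.0 in dura, against 0 in CAM_1 of 7 libraries and 1.09 CPM in that of 24 h pia. Few Macro_2 cells held it. In brain these were 3 in the control, 3 and 2 at 24 h and 3 at 72 h, and 1 cell held 80 of its 126 UMIs in 24 h library 1. In pia they were 4 and 4, with 81 of 85 UMIs of 24 h pia in 1 cell, and in dura 12 and 8. Crybb1 was lower than in CAM_1 in all 8 on both scales, and Npl with the pseudocount. The comparison with CAM_1 in brain needs care, because CAM_1 of control and 24 h brain went against its label. Its microglia list summed to 31033 CPM in the control and 15747 and 7394 at 24 h, and its border macrophage list to 312, 719 and 3046 CPM. The border list of Macro_2 summed to 1922, 1472 and 1076 CPM in these libraries. At 72 h the microglia and border lists of CAM_1 summed to 2599.5 and 2652 CPM, whereas in pia and dura its border list summed to 9408 to 13003 CPM. Comparisons of change with CAM_1 were therefore made in pia and dura.

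Against mDC2, in the 6 libraries with at least 30 cells of each, 13 genes were at least 4-fold higher and 25 at least 4-fold lower in all, among 4202 genes. With the floor of 3 UMIs in place of the pseudocount these were 7 and 25. Those higher were led by Apoe (median log2 ratio 5.02), Aoah (4.45), Ms4a7 (4.30), Msr1 (a scavenger receptor, 4.28) and C3ar1 (the C3a receptor, 4.18), of which Apoe and C3ar1 were also among the 7. Among those lower were Fscn1 (fascin, −6.37), Ccl17 (−6.24), Ccr7 (the receptor that guides dendritic cells to lymph nodes, −6.03) and Ccl22 (−5.67), genes known from mature dendritic cells. Cd209a, a marker of type 2 dendritic cells, came after these (−5.41). Cd209a was at 161 CPM in Macro_2 of control brain, 88.4 and 94.8 at 24 h, 41.9 at 72 h, 22.9 and 35.7 in pia and 129 and 72.6 in dura, against 744 to 5696 CPM in mDC2. Flt3 was at 16.1 CPM in control brain, 50.5 and 50.7 at 24 h, 54.8 at 72 h, 22.9 and 26.2 in pia and 11.8 and 13.9 in dura, where mDC2 held 58.8 to 123 CPM.

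**Figure D2:**
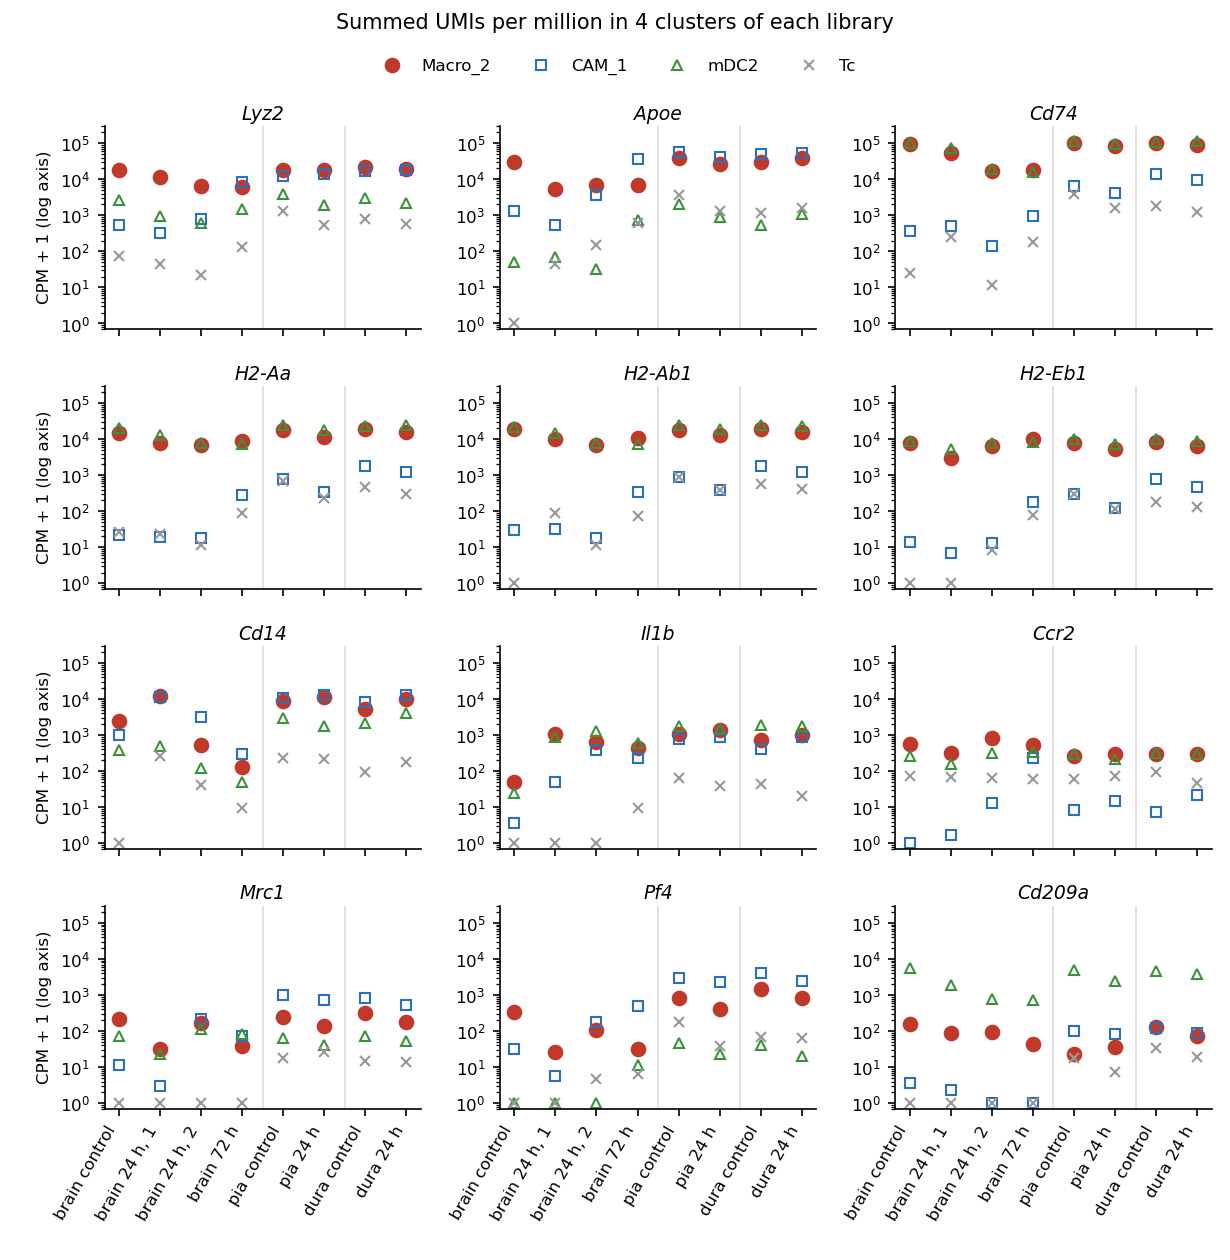
CPM + 1 (log axis) of 12 genes in the sums of Macro_2, CAM_1, mDC2 and Tc of each library, 1 point per cluster and library. The MHC class II genes of Macro_2 lie beside those of mDC2 and above CAM_1 throughout, Pf4 lies below CAM_1 in pia and dura, and Cd209a lies below mDC2 in all libraries.

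Macro_2 held cells with border macrophage transcripts and cells with Ccr2. For a common depth each cell was thinned to 1000 UMIs, which left 31, 55, 90 and 555 cells in the control, 24 h (libraries 1 and 2) and 72 h brain libraries, 993 and 769 in control and 24 h pia, and 581 and 615 in control and 24 h dura. A UMI of Mrc1 or Pf4 was found in 46.1% of these cells in control pia and 32.6% in 24 h pia, in 53.2% in control dura and 42.9% in 24 h dura. In brain the share was 41.9% in the control, 9.09% and 22.2% at 24 h and 6.31% at 72 h. Ccr2 was found in 19.3% and 21.3% in pia, 19.3% and 22.1% in dura, 38.7% in control brain, 18.2% and 53.3% at 24 h and 40.4% at 72 h. Cells with both numbered 49 of 993 in control pia, 34 of 769 in 24 h pia, 34 of 581 in control dura, 36 of 615 in 24 h dura, 3 of 31 in control brain, 1 of 55 and 11 of 90 at 24 h and 17 of 555 at 72 h. These were 3.06% to 5.85% of cells in the border and 72 h libraries, 9.68% in control brain and 1.82% and 12.2% in 24 h brain. In Tc thinned alike, the share with a UMI was at most 1.9% for Mrc1, 11.3% for Pf4 and 9.5% for Ccr2. The 11.3% was in control pia, above the 9.09% and 6.31% of Macro_2 in brain, where Tc held Pf4 in at most 1.12% of cells. Control brain lay within the range of pia and dura for Mrc1 or Pf4, and 24 h brain library 1 just under it for Ccr2. Without thinning, Ccr2 was found in 31.7%, 35.2%, 33.5% and 38.3% of Macro_2 cells of control pia, 24 h pia, control dura and 24 h dura, and Mrc1 in 35.0%, 20.6%, 42.5% and 31.7%.

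Inflammatory genes were detected in many Macro_2 cells of control pia and dura too, and Il1b in few of control brain. The study digested pia and dura for longer than brain, and the part of digestion in these levels was not tested. Il1b, which encodes interleukin-1β, had a UMI in 43.4% of thinned cells in control pia, 46.8% in 24 h pia, 31.3% in control dura and 42.0% in 24 h dura. In brain it was found in 6.5% of control cells, 32.7% and 35.6% at 24 h and 27.0% at 72 h, and in Tc in at most 4.3%. Its level was 1085 and 1425 CPM in control and 24 h pia, 720 and 1026 in control and 24 h dura, and 48.4, 1061, 628 and 447 in control, 24 h (libraries 1 and 2) and 72 h brain. Cd14, the co-receptor for lipopolysaccharide, was at 8672 and 11357 CPM in control and 24 h pia and at 5352 and 9974 in control and 24 h dura. In brain it was at 2390 CPM in the control, 12037 and 531 at 24 h and 126 at 72 h. Brain 24 h libraries 1 and 2 differed more from each other in Cd14 than the control did from either border tissue.

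The response at 24 h was tested in pia and dura together, as the change shared by both tissues. UMIs were summed per library and fitted with edgeR's quasi-likelihood test with tissue as a term. The only residual of a gene is how far its changes in the 2 tissues disagree (1 residual degree of freedom). The test combines this with the spread of the other genes, so each p-value rests on those genes as well. To be called, a gene had to change 2-fold or more with an adjusted p under 0.05. Of 7480 genes tested, 202 (2.7%) were called, 93 higher (1.24%) and 109 lower (1.46%) at 24 h. Slc7a11, Pkm, Fn1 and Ecm1 were among those that rose, and 6 of 15 border macrophage genes and 5 of 20 interferon response genes among those that fell. DESeq2 on the same sums called 34 genes, 33 of them among the 202. The split depends on the scaling: 46.0% of calls were higher with TMM factors and 60.1% (140 of 233) with library size alone. Leaving a library out leaves no test within the 4 libraries. In a fit of all 8 libraries 2 genes were called, and 244 when the gene list of the library was a term. Control and 24 h dura also differ in kit version by the study's table, and with that as a term 16 genes were called, 6 of them among the 202. The barcodes disagree with that table on 24 h dura and on brain 24 h library 2, as given above.

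Slc7a11, the cystine transporter that supplies glutathione synthesis, rose from 37.5 CPM (95% interval 30.1 to 46.0) to 261 (237 to 287) in pia and from 32.2 (23.8 to 42.5) to 235 (212 to 260) in dura. The log2 fold change was 2.75 (SE 0.18, edgeR adjusted p = 2.26e-08), and DESeq2 called it too. It stood at 1061 CPM in brain 24 h library 1, 119 in library 2 and 42.4 at 72 h, and no UMI was found in control brain. The other clusters showed it too, as CAM_1 went from 5.11 to 132 CPM in pia and from 19.4 to 139 in dura. In mDC2 it went from 18.6 to 190 and from 28.2 to 172. The difference of change from CAM_1 (−1.12) and from mDC2 (−0.13) was not called. Tc of pia and dura held 0 to 3.11 CPM.

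Saa3, an acute-phase serum amyloid A protein, had no UMI in Macro_2 of either control and reached 139 CPM in 24 h pia and 53.0 in 24 h dura. Against a floor of 3 UMIs per library this was at least 111-fold higher in pia and at least 26.9-fold higher in dura. Few cells carried it: 48 cells held the 234 UMIs of 24 h pia and 11 cells the 84 of 24 h dura, where 1 cell held 58. CAM_1 of 24 h pia was at 682 CPM and that of 24 h dura at 63.8. Tc of 24 h pia held 31.1 CPM.

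Fn1 (fibronectin) rose from 2.50 to 69.6 CPM in pia and from 2.63 to 14.5 in dura, a log2 fold change of 4.01 (SE 0.42, edgeR adjusted p = 5.29e-05). Its UMIs came from 59 cells in 24 h pia and 10 cells in 24 h dura, and CAM_1 reached 5.46 and 1.25 CPM at 24 h. In brain Fn1 was at 16.1 CPM in the control (1 UMI), 240 and 428 at 24 h and 561 at 72 h. Other genes that rose were Ecm1 (extracellular matrix protein 1; 5.83 to 51.7 CPM in pia, 13.1 to 78.3 in dura), Trem1 (an activating receptor of myeloid cells; 4.58 to 59.5 and 5.91 to 31.6) and Igfbp6 (a binding protein of insulin-like growth factors; 1.66 to 41.6 and 3.94 to 17.7). Adora2b, an adenosine receptor, went from 4.99 to 42.2 CPM in pia and from 17.1 to 52.4 in dura. Fam129b (13.7 to 70.2 and 5.25 to 39.1 CPM) rose as well, and so did 1 of the 2 identifiers named Dpep2 (a dipeptidase). Of them DESeq2 called Ecm1 and Dpep2.

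Some other genes among the largest increases rested on a single cell, as Saa3 of 24 h dura did, or on RNA found in every cluster. Cxcl13, a B cell chemokine, went from 0.416 to 17.2 CPM in pia and from 0 to 121 CPM in dura, where 1 cell held 113 of its 192 UMIs. Hbb-bs, a β-globin gene, was at 216 CPM in 24 h dura, where 1 cell held 329 of 342 UMIs. The whole erythrocyte list summed to 452 CPM there, against 18.9 in CAM_1, 22.4 in mDC2 and 21.5 in Tc of that library. Elane, neutrophil elastase, reached 34.7 CPM in Macro_2 of 24 h dura and 32.5, 32.9 and 49.5 CPM in CAM_1, mDC2 and Tc. The neutrophil list, of which 3 of 7 tested members were called higher (S100a8, S100a9 and Ngp), summed to 297 CPM in control dura and 621 in 24 h dura. In Tc of these libraries it summed to 425 and 862 CPM, more than in Macro_2. Its most abundant gene was Ngp, and between 6 and 9 of its 10 genes had a UMI in the 4 border libraries. The mast cell list had 1 of 4 members called higher, Cma1. With the 5 called genes set aside of which 1 cell held 50% or more of the UMIs of a library (Cxcl13, Saa3, Hbb-bs, Lyz1 and Ly6i), 197 genes were called, 90 higher and 107 lower.

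Of the 16 glycolysis and hypoxia genes tested, 15 had a value above 0, with a median log2 fold change of 0.38 against −0.01 over all genes tested, and 2 were called. Pkm (pyruvate kinase) rose from 238 to 740 CPM in pia and from 275 to 430 in dura, and Slc16a3, the lactate exporter MCT4, from 14.6 to 72.6 and from 20.3 to 41.0. Gapdh (log2 0.75), Eno1 (0.80) and Ldha (0.70) had adjusted p-values under 0.05 in edgeR and folds under 2, so they were not called. The glycolysis and hypoxia list also summed higher at 24 h in CAM_1 (1222 and 2494 CPM in pia, 1285 and 1895 in dura) and mDC2 (2387 and 3571, 2483 and 3197). No member was called for a difference of change from either cluster. Tgfbi, a matrix protein induced by TGFβ, rose from 227 to 614 CPM in pia and from 217 to 384 in dura, and Ifitm1 from 8.32 to 42.8 and from 5.91 to 21.5.

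**Figure D3:**
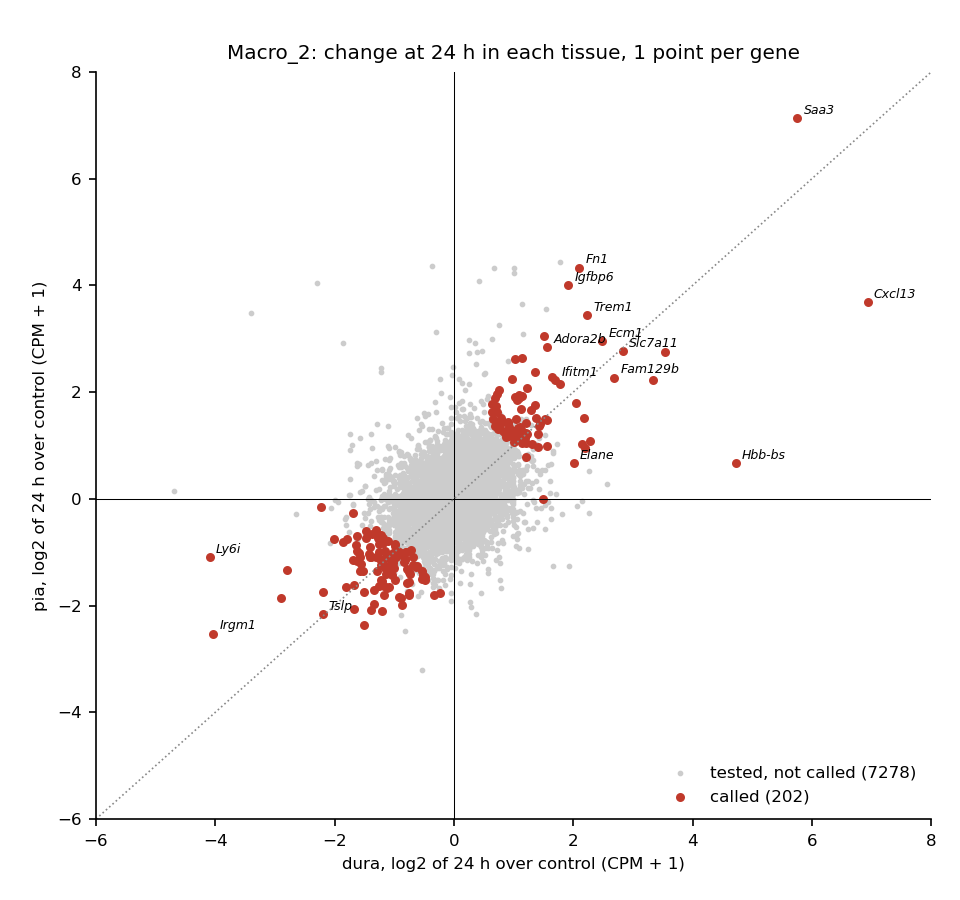
Change at 24 h in Macro_2 of dura (x axis) and pia (y axis), each as log2 of (CPM + 1) at 24 h over control, 1 point per gene tested, with the 202 called genes in red and the dotted line marking equal change. Saa3, Slc7a11 and Ecm1 lie high in both tissues, Hbb-bs and Cxcl13 lie far to the right, and Irgm1 and Tslp lie low in both.

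Border macrophage genes were among those that fell. Of 15 members tested, 6 were called lower and none higher, 13 had a negative value, and the median log2 fold change was −0.96 against −0.01 over all genes tested. Lyve1, a hyaluronan receptor, fell from 32.0 to 11.9 CPM in pia and from 28.2 to 8.84 in dura (log2 −1.61, SE 0.29, edgeR adjusted p = 0.00259). Folr2 (folate receptor β) fell from 58.3 to 17.8 and from 85.3 to 39.8, and Cd209f from 20.4 to 11.9 and from 139 to 49.2. Gas6, a ligand of the TAM receptors that take part in the uptake of dead cells, fell from 192 to 95.1 and from 151 to 78.9, the transcription factor Maf from 103 to 45.2 and from 124 to 59.97, and Timd4 (a phosphatidylserine receptor) from 23.3 to 10.7 and from 9.19 to 3.79. Each of these 6 was lower at 24 h in both tissues, and DESeq2 also called Folr2, Gas6 and Maf. Pf4 (817 to 407 CPM in pia, 1428 to 823 in dura, log2 −0.97), Mrc1 (247 to 140 and 310 to 177, log2 −0.88) and Cbr2 (94.9 to 52.9 and 210 to 110, log2 −0.96) had adjusted p-values of 0.000445, 0.00212 and 0.00166 in edgeR and folds just under 2. The smaller share of thinned cells with Mrc1 or Pf4 at 24 h, given above, goes with these levels. Whether fewer such cells, less RNA per cell or less free RNA lies behind them was not tested. The list as a whole summed to 3357 and 2458 CPM in control and 24 h pia and 4938 and 3627 in dura, against 642 and 243 and 348 and 363 in Tc.

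Some interferon response genes fell as well. Of 20 members, 5 were called lower and none higher, 19 were negative, and the median log2 fold change was −0.67. Ifi27l2a fell from 531 to 300 CPM in pia and from 503 to 220 in dura (log2 −1.08, SE 0.15, edgeR adjusted p = 0.00032), Ifi47 from 58.7 to 38.7 and from 89.3 to 35.4, Iigp1 (an immunity-related GTPase) from 35.8 to 10.7 and from 44.6 to 11.99, and Gbp2 (a guanylate-binding protein) from 66.2 to 35.7 and from 112 to 35.4. Of these 4, DESeq2 called Ifi27l2a and Gbp2. Ifitm2, the most abundant member, was 1117 and 1990 CPM in control and 24 h pia and 1880 and 2261 in dura and was not called. The list as a whole summed to 4765 and 5375 CPM in control and 24 h pia and 5793 and 4583 in dura. In Tc it summed to 2236 and 1963 CPM in pia and 3045 and 1215 in dura, and the part of free RNA was not tested. Outside the list, Irgm1, a further immunity-related GTPase, fell from 28.7 CPM (22.3 to 36.3) to 4.16 (1.67 to 8.58) in pia and from 36.1 (27.2 to 47.0) to 1.26 (0.153 to 4.56) in dura. The last of these levels is 2 UMIs. Irgm1 was also lower at 24 h in CAM_1 (35.1 to 2.73 and 36.7 to 2.50 CPM), mDC2 (66.5 to 7.31 and 37.6 to 5.98) and Tc (40.9 to 15.6 and 46.9 to 6.60). Cxcl10, an interferon-induced chemokine, fell from 62.8 to 28.5 CPM in pia and from 80.7 to 39.8 in dura. Il15 (11.2 to 2.97 and 20.3 to 5.68 CPM) and Tslp (14.1 to 2.38 and 21.0 to 3.79), both cytokines that act on lymphocytes or dendritic cells, fell too.

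The promoters of Irgm1, Gbp2 and Cxcl10, chosen as examples after their values were seen, hold the interferon-stimulated response element (TTTC, 2 bases of any kind and TTTC), and the stretches are shown because these genes moved together. They are from RefSeq (GRCm38.p6), in the direction of the gene, with each match in capitals. Matches on the opposite strand read as GAAA, 2 bases and GAAA. In Irgm1 there are 2 overlapping matches.
Irgm1, chr11:48871421-48871520, minus strand: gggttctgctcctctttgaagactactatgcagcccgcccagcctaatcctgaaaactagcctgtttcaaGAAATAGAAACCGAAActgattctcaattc
Gbp2, chr3:142620563-142620662, plus strand: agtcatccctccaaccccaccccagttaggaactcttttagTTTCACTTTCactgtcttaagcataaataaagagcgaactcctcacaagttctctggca
Cxcl10, chr5:92349018-92349117, minus strand: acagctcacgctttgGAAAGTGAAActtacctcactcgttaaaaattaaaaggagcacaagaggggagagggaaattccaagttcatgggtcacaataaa
The first 2 stretches end 1 base before the start and that of Cxcl10 ends 129 bases before it. The motif was found in 2.98% of 32851 promoters when both strands of 250 bases before the start were searched. Of the 20 genes of the interferon list, 15 had a promoter in the table and 9 held it, Gbp2 being the member among them that was called.

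Of the MHC class II genes only Ciita passed both thresholds at 24 h. All 11 tested members were negative, with a median log2 fold change of −0.43. Ciita fell from 19.6 to 11.3 CPM in pia and from 30.2 to 12.6 in dura (log2 −1.10, SE 0.29, edgeR adjusted p = 0.0295). H2-Aa (−0.50), H2-Ab1 (−0.48) and H2-Eb1 (−0.58) had adjusted p-values of 0.0261, 0.0284 and 0.0114 in edgeR, and Cd74 (−0.26) one of 0.214. The 11 MHC class I genes were negative too, with a median of −0.34 and none called. Their sum was lower at 24 h in CAM_1, mDC2 and Tc of both tissues as well (in Tc 17526 and 14062 CPM in pia and 16900 and 12470 in dura). The sum of the class II list was lower in CAM_1 and Tc of both tissues and in mDC2 of pia, and higher in mDC2 of dura. In the tests of a difference of change from CAM_1 and mDC2, given below, no member of either list was called. B2m, the light chain of MHC class I, was at 4598 and 2578 CPM in control and 24 h pia and 4282 and 2562 in dura (log2 −0.86).

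Among immediate early genes 16 of 17 were negative, the median was −0.66, and 3 were called lower: Egr1 (306 to 125 CPM in pia, 181 to 80.2 in dura), Klf2 (970 to 483 and 605 to 319) and Rhob (132 to 70.8 and 119 to 59.97). The immediate early list also summed lower at 24 h in CAM_1 and mDC2 of both tissues, and higher in Tc. No member was called for a difference of change from CAM_1 or mDC2. Of the microglia list 3 of 10 tested members were called lower (9 were negative, median −0.52), Siglech (36.2 to 10.1 and 14.4 to 4.42 CPM), P2ry12 (81.1 to 33.3 and 47.3 to 30.3) and Gpr34 (117 to 32.7 and 121 to 71.3). The list summed to 2905 and 1792 CPM in control and 24 h pia and 1746 and 1599 in dura. It was lower at 24 h in the other clusters too, at 298 and 118 CPM in pia and 157 and 79.3 in dura in Tc, 835 and 339.9 and 564 and 490.3 in mDC2, and 3267 and 1945 and 2395 and 2004 in CAM_1. The part of free RNA in these decreases was not tested. Serinc3 had the firmest decrease, from 1403 CPM (1356 to 1451) to 427 (396 to 459) in pia and from 1440 (1381 to 1502) to 567 (530 to 605) in dura. Its log2 fold change was −1.60 (SE 0.15, edgeR adjusted p = 4.84e-06). Serinc3 was also lower in CAM_1 (1578 to 522 and 1820 to 697 CPM), mDC2 (595 to 126 and 462 to 144) and Tc (479 to 174 and 615 to 277). Other genes called lower were Nfkbiz (590 to 277 and 458 to 208 CPM), the clock gene Nr1d2 (18.7 to 3.57 and 20.3 to 8.21), complement factor B (Cfb; 13.3 to 7.14 and 68.9 to 18.3) and Lyz1 (107 to 47.6 and 299 to 91.5). In Ly6i (7.49 to 2.97 and 59.1 to 2.53 CPM) and Ly6c2 (5.41 to 4.76 and 63.0 to 12.6) the control level and the decrease were larger in dura. H2-M2 went from 4.16 to 0 CPM in pia and from 51.9 to 17.7 in dura.

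The inflammatory cytokine and chemokine list did not move as a group, with 9 of 24 tested members positive, a median of −0.20 and 1 called, Cxcl10. Il1b (log2 0.38, edgeR adjusted p = 0.101), Tnf (−0.48), Cxcl2 (0.02), Ccl3 (−0.06) and Ccl4 (−0.71) were not called. Ccl2, the ligand of CCR2, was at 1849 and 1039 CPM in control and 24 h pia and 1899 and 1183 in dura (log2 −0.83, adjusted p = 0.000927 in edgeR). Heat shock (0 of 10 called), complement (1 of 10), lipid handling (0 of 16) and lysosomal protease genes (0 of 15) had medians between −0.13 and 0.17. C1qb was at 6782 and 8029 CPM in control and 24 h pia and 6387 and 7922 in dura. Spp1 (osteopontin) was at 70.3 and 605 CPM in pia and 42.0 and 94.7 in dura, and was not called (adjusted p = 0.31 in edgeR).

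**Figure D4:**
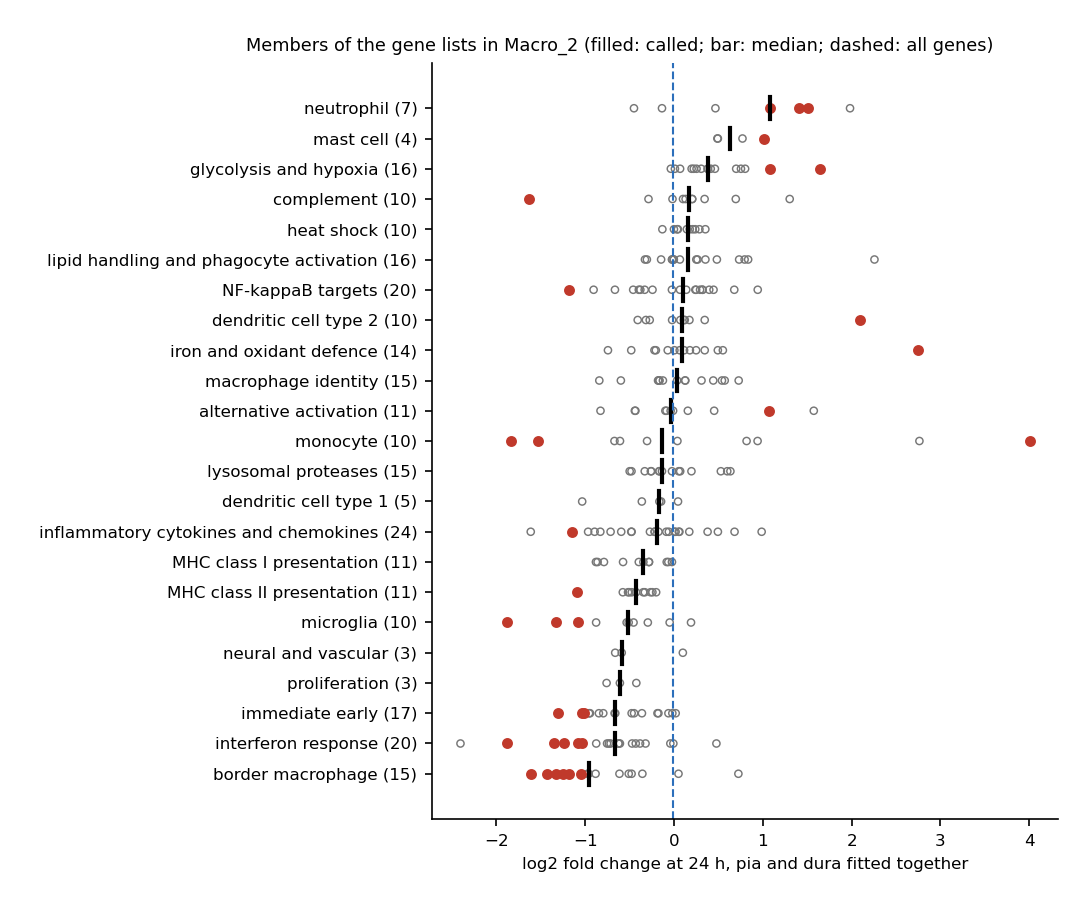
Log2 fold change at 24 h (pia and dura fitted together) of every tested member of 23 gene lists in Macro_2, with called genes filled, the median of each list as a black bar and the median of all genes as a dashed line. Border macrophage, interferon response and immediate early genes lie to the left, with medians of −0.96, −0.67 and −0.66, and glycolysis genes to the right, with a median of 0.38.

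Pia and dura were compared in the same fit, over control and 24 h libraries together. Of 7480 genes tested, 195 (2.61%) were called, 78 higher in pia (1.04%) and 117 higher in dura (1.56%), and DESeq2 called 72, of which 70 were among the 195. Of the heat shock list 4 of 10 tested members were called higher in pia, and of the type 2 dendritic cell list 5 of 10 higher in dura. Of the mast cell list 4 of 4 and of the neutrophil list 6 of 7 tested members were called higher in dura as well. Levels are given as control pia and 24 h pia against control dura and 24 h dura.

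Ptgds, a prostaglandin synthase of the leptomeninges, was at 106 and 82.1 CPM in pia and 11.2 and 5.05 in dura (log2 3.59, SE 0.25, edgeR adjusted p = 3.71e-08). The tissues did not overlap. CAM_1 held 289 and 424 CPM in pia and Tc 70.1 and 74.6, so RNA of Ptgds was also found in other clusters of pia. Of the cytokine list 6 of 24 tested members were called higher in pia and none in dura, while 12 were positive and 12 negative, with a median of 0.02 as over all genes tested (0.02). Cxcl2, a neutrophil chemokine, was at 5954 and 6591 against 2474 and 2532 CPM (log2 1.37, SE 0.12, adjusted p = 1.07e-06 in edgeR). Ccl3 was at 1120 and 1003 against 434 and 499, Ccl4 at 2223 and 1288 against 909 and 648, and Ccl12 at 2822 and 1946 against 999.7 and 705. Il1a (151 and 111 against 42.0 and 53.7 CPM) and Il6 (12.9 and 13.1 against 3.94 and 5.68) were the others. In Tc Cxcl2 stood at 438 and 180 CPM in pia and 91.0 and 79.3 in dura.

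All 10 tested heat shock genes were positive, with a median log2 difference of 0.91, and 4 were called: Hspa1a (973 and 1156 against 240 and 372 CPM), Hspa1b, Hsph1 and Dnajb1 (538 and 555 against 219 and 248). The immediate early genes Jun (1494 and 1054 against 735 and 379) and Atf3 (491 and 308 against 253 and 137) were higher in pia as well. Outside these lists, Sqle (24.1 and 22.6 against 4.59 and 1.89 CPM) and Cyp51 (33.7 and 30.9 against 11.2 and 8.21), enzymes of sterol synthesis, and Srebf2 (49.1 and 49.95 against 15.8 and 17.7), a regulator of such enzymes, were higher in pia. They are given as single genes, and no list of sterol synthesis genes was tested. Among the remaining genes higher in pia were the metalloprotease Mmp14 (52.9 and 82.7 against 11.2 and 35.4 CPM), the amino acid transporter Slc7a5 (17.5 and 32.1 against 7.22 and 3.79), Cxcl14, Qpct, Otud1 and Arsb.

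Higher in dura were 5 of 10 tested genes of the type 2 dendritic cell list. Mgl2, a lectin, was at 915 and 540 CPM in dura against 278 and 300 in pia, Clec10a at 121 and 180 against 37.0 and 29.7, and Cd209a at 129 and 72.6 against 22.9 and 35.7. Itgax (18.4 and 18.3 against 4.99 and 10.7 CPM) and Kmo (13.1 and 11.4 against 2.50 and 4.76) completed the 5. CAM_1 also expressed Mgl2 and Clec10a, at 211 to 634 and 247 to 441 CPM over the 4 libraries. Of the lipid list, Plin2 (a lipid droplet coat protein; 489 and 904 in dura against 233 and 418 in pia), Abca1 (a cholesterol exporter; 51.2 and 58.1 against 17.1 and 15.5), Pltp (237 and 244 against 97.4 and 64.8) and Lpl (40.7 and 42.3 against 12.1 and 19.6) were higher in dura, and Cd9 was higher in pia. From the border list Cbr2, Cd209f and Clec4n were higher in dura and Timd4 in pia.

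The largest differences in dura were in genes of other cells. Iglc1, an immunoglobulin light chain, had no UMI in Macro_2 of pia and stood at 63.7 and 182 CPM in dura, at least 51.0-fold and at least 102-fold higher against the floor of 3 UMIs. Igkc was at 170 and 314 CPM in dura against 7.91 and 20.2 in pia, while Tc of dura held 477 and 518, CAM_1 252 and 349, and mDC2 161 and 308. All 4 tested mast cell genes were called, with Cma1 at 63.0 and 125 CPM and Tpsb2 at 64.3 and 96.6. Tpsb2 was among the called genes of which 1 cell held 50% or more of the UMIs of a library. The mast cell list summed to 158 and 263 CPM in Macro_2 of dura and 121 and 142 in Tc, against 2.91 and 10.7 in Macro_2 of pia. Of the neutrophil list 6 of 7 were called. Jchain, Camp, Mpo, Elane and Cpa3 were higher in dura too, and so was Hbb-bs, which rested on 1 cell of 24 h dura. These RNAs were also found in Tc of dura, which does not make them (Hbb-bs at 13.8 and 9.91 CPM), and the part of free RNA in each difference was not tested.

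The change at 24 h was then compared between Macro_2 and CAM_1 of the same pia and dura libraries by an interaction term. Of 8268 genes tested, 28 (0.339%) changed differently, 7 toward higher values in Macro_2 (0.0847%) and 21 toward lower (0.254%), and DESeq2 called 5, all toward lower values. Ifi27l2a went in opposite directions. It fell from 531 to 300 CPM in pia and from 503 to 220 in dura in Macro_2, and went from 410 to 808 and from 354 to 603 CPM in CAM_1 (difference −1.93, SE 0.13, edgeR adjusted p = 3.22e-44). Tc had 508 and 271 CPM in pia and 623 and 149 in dura, the direction of Macro_2.

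Spp1, Lgals3 and Capg were among the genes with the more positive change in CAM_1. Spp1 went from 30.7 to 870 CPM in pia and from 15.1 to 126 in dura in CAM_1, and from 70.3 to 605 and from 42.0 to 94.7 in Macro_2 (difference −1.82). Lgals3 (galectin 3) went from 16.1 to 125 and from 81.9 to 387 CPM in CAM_1 and from 273 to 793 and from 725 to 886 in Macro_2 (−1.80). Capg, an actin capping protein, went from 12.4 to 111 and from 28.03 to 103 in CAM_1 and from 107 to 355 and from 184 to 187 in Macro_2 (−1.67). The control level of Lgals3 and of Capg was higher in Macro_2 than in CAM_1 in both tissues. Ccl8 went from 213 to 22.0 CPM in Macro_2 of pia and from 693 to 479 in dura, against 574 to 496 and 871 to 2175 in CAM_1 (−2.26). Lyve1 and Folr2 fell in Macro_2, as given above, while in CAM_1 Lyve1 was at 525 and 450 CPM in control and 24 h pia and 147 and 149 in dura. Folr2 of CAM_1 was at 479 and 375 CPM in pia and 362 and 285 in dura. Of the 16 border macrophage genes tested for a difference of change, these 2 were called, and the median was −0.27 against −0.03 over all genes. The border list as a whole was lower at 24 h in CAM_1 too, at 12545 and 9974 CPM in pia and 13003 and 9408 in dura. Txnip, which restrains glucose uptake, was lower in both clusters and less so in Macro_2 (54.5 to 27.4 and 112 to 49.9 CPM, against 178 to 38.2 and 162 to 33.8 in CAM_1). The change of Ecm1 was the more positive in Macro_2 (1.26).

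Against mDC2, 24 of 7344 genes (0.327%) changed differently, 16 toward higher values in Macro_2 (0.218%) and 8 toward lower (0.109%). DESeq2 called none and had 31 genes at an unadjusted p under 0.05, fewer than this threshold passes if no gene changes. Higher calls were 66.7% of the total with TMM factors and 77.3% with library size alone. Fscn1, Ccl22 and Fabp5 were among the genes with the more positive change in mDC2. Fscn1 went from 542 to 1261 CPM in pia and from 563 to 1145 in dura in mDC2, and from 17.5 to 6.54 and from 7.88 to 6.31 in Macro_2. Ccl22 of mDC2 went from 295 to 1685 and from 326 to 587 CPM, and that of Macro_2 from 5.83 to 9.51 and from 17.1 to 8.84. Fabp5, a fatty acid-binding protein, went from 37.2 to 479 and from 40.8 to 260 CPM in mDC2 and from 5.41 to 16.1 and from 27.6 to 10.7 in Macro_2.

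Of the cytokine list 3 of 26 tested members were called, Il1a, Tnf and Ccl6, all with the more positive change in Macro_2. In the list 18 members were positive and 8 negative, with a median difference of 0.26 against 0.0018 over all genes tested. Il1a was at 151 and 111 CPM in control and 24 h pia and 42.0 and 53.7 in dura in Macro_2, and at 39.9 and 9.14 and 28.2 and 1.49 in mDC2. Tnf was at 228 and 185 and 138 and 96.0 CPM in Macro_2 and at 79.8 and 20.1 and 50.2 and 10.5 in mDC2. Plaur, the urokinase receptor, went from 480 to 899 and from 476 to 605 CPM in Macro_2 and from 893 to 358 and from 721 to 428 in mDC2. Adgre1, which encodes the macrophage marker F4/80, was at 468 and 228 CPM in pia and 548 and 385 in dura in Macro_2, and at 101 and 11.0 and 76.8 and 28.4 in mDC2. Neither Il1a nor Tnf nor Adgre1 was called as changed in Macro_2 itself.

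**Figure D5:**
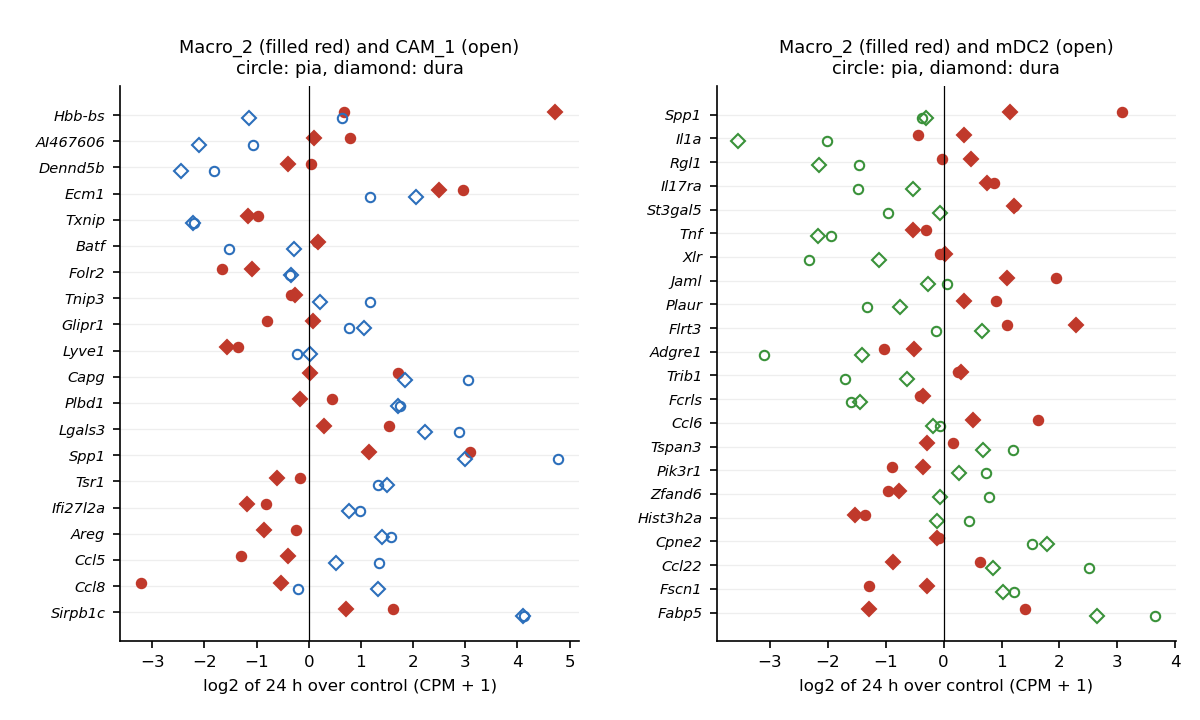
Log2 of (CPM + 1) at 24 h over control for the genes whose change differed between Macro_2 (filled) and CAM_1 (left, open) or mDC2 (right, open), with circles for pia and diamonds for dura. Ifi27l2a lies on opposite sides of 0 in Macro_2 and CAM_1, and Spp1, Il17ra and Plaur lie on opposite sides in Macro_2 and mDC2.

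In brain, 72 h was compared with 24 h, with the 2 libraries at 24 h as the only replicates and 1 library at 72 h. Of 6260 genes tested, 1 (0.016%) was called by edgeR. At an unadjusted p under 0.05 in edgeR there were 87, fewer than this threshold passes if no gene changes. The called gene was Ccl17, a dendritic cell chemokine, at 379 and 77.2 CPM at 24 h and 1.07 at 72 h (edgeR adjusted p = 0.04997). That is just under the threshold, and with no filter on low counts Ccl17 was not called, while DESeq2 called it. Its UMIs came from few cells, 1 of which held 36 of 60 in library 1 and another 24 of 35 in library 2, and mDC2 of these libraries held 8003, 3020 and 124 CPM. In a fit of all 8 libraries with kit version by the table as a term the sign was the opposite (log2 0.57), and that table and the barcodes disagree on 24 h library 2.

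The brain libraries at 24 h differed from each other in the levels of genes such as Ccl3, Ccl2 and Cd14, and the number of such genes was not tested. A fit of all 8 libraries called 0 genes between 24 h and 72 h. With library 1 left out of it 24 genes were called, and with library 2 left out, which shares the gene list of the 72 h library, 1616. In both cases 24 h and 72 h brain were then 1 library each, assumed to vary like the others, so the numbers are no measure of a change with time. Of the cytokine list 20 of 21 tested members were lower at 72 h with a median log2 difference of −2.89 against 0.02 over all genes, and none was called. Ccl3 was at 1550 CPM in control brain, 7920 and 635 at 24 h and 214 at 72 h, and Cxcl2 at 5345, 8614 and 4065, and 502. Ccl2 was at 1098, 1566 and 196, and 63.3 CPM. Library 1 of 24 h had the highest level of each and 72 h the lowest.

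Within the 2 libraries of the shorter gene list, 24 h library 2 and 72 h, levels can be set side by side with no test. Cxcl2 went from 4065 CPM (3882 to 4255) to 502 (470 to 535) and Cd14 from 531 to 126. Il1b was at 628 and 447 CPM, Tnf at 165 and 30.6, and C1qb at 1706 and 843. Mrc1 was at 172 and 38.7 CPM and Pf4 at 106 and 30.1. Ifitm1 was higher at 72 h (256 and 899 CPM), as were Fabp5 (48.5 and 206), Gpnmb (4.41 and 47.2), Cd63 (77.2 and 329) and Ifi27l2a (454 and 803). H2-Ab1 (6759 and 10713 CPM) and H2-Eb1 (6464 and 10334) were higher at 72 h in this pair and Cd74 (16889 and 18057) was similar. Time and library cannot be told apart here, and whether the kit differed within this pair is unclear, since the table and the barcodes disagree.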

How the data were processed

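The authors aligned and counted the reads of each 10x library with Cell Ranger 6.0 on mm10 and deposited matrices of raw UMI counts per gene and cell, with a table that gives each cell its cluster and library. Their clusters came from normalised, batch-integrated data with doublets removed. Cells were joined to the matrices by barcode within each library. UMIs of Macro_2, CAM_1, mDC2 and Tc were summed per library over the 30406 genes present in both gene lists and scaled to CPM. Sums were tested with edgeR 4.0.16 (R 4.3.3, TMM factors, its filter on low counts, quasi-likelihood test, Benjamini-Hochberg adjustment over all genes tested), with DESeq2 1.42.0 as an alternative. Pia and dura were fitted with tissue and time as terms, brain with time, and clusters with an interaction term and library as a block. A pseudocount of 1 CPM was used in plots and in ratios between clusters. The residual degree of freedom is 1, and both tools share information on spread across genes. The p-values thus rest on the spread between these libraries, pooled over genes, and not on that between mice. The scripts were tested on simulated data. Named genes are the 12 with the largest fold in each direction among those called and at 20 CPM or more in 1 library. In the pia and dura fit these 12 also had to change the same way in both tissues, or differ the same way at both times. Their agreement was thus fixed by the rule. Called members of 25 gene lists, the 4 most abundant members of each list and 13 genes given in every library were named as well. Ribosomal, mitochondrial and unnamed genes were not named. Members and lists were chosen with earlier results of these data known. Some called genes are not reported here.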

Additional observations from a re-analysis of the deposited data

Results flagged for a closer look

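The change at 24 h differed between Macro_2 and CAM_1 of pia and dura in 28 genes and between Macro_2 and mDC2 in 24 genes, by a test of the difference itself (the interaction term of edgeR). The values that follow are log2 differences of the 24 h change, positive where the change was the higher in Macro_2. They cover 6 of 7 positive and 14 of 21 negative differences from CAM_1, and 14 of 16 positive and all 8 negative ones from mDC2.

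Against CAM_1, positive differences were those of Hbb-bs 5.99, AI467606 1.98, Dennd5b 1.93, Ecm1 1.26, Txnip 1.11 and Batf 1.02. Among the negative ones were Sirpb1c −6.20, Ccl8 −2.26, Ccl5 −2.05, Areg −2.05, Ifi27l2a −1.93, Tsr1 −1.83, Spp1 −1.82, Lgals3 −1.80, Plbd1 −1.76, Capg −1.67, Lyve1 −1.45, Glipr1 −1.45, Tnip3 −1.31 and Folr2 −1.09. The values of Sirpb1c, with no UMI in CAM_1 of both controls, and of Hbb-bs, with no UMI in control pia, depend on the prior count of the fit. That of Hbb-bs rests on 1 cell of 24 h dura.

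Against mDC2, positive differences were those of Spp1 2.67, Il1a 2.61, Rgl1 2.20, Il17ra 1.77, St3gal5 1.67, Tnf 1.64, Xlr 1.603, Jaml 1.596, Plaur 1.59, Flrt3 1.40, Adgre1 1.30, Trib1 1.29, Fcrls 1.11 and Ccl6 1.10. The negative ones were Fabp5 −3.32, Fscn1 −2.17, Ccl22 −1.86, Cpne2 −1.84, Hist3h2a −1.65, Zfand6 −1.28, Pik3r1 −1.16 and Tspan3 −1.06.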

How the results depend on the processing

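The number of genes called at 24 h in pia and dura (202) was 34 with DESeq2, 2 in a fit of all 8 libraries and 16 with kit version added to it. In that fit it ranged from 0 to 244 when 1 library was left out, with 0 without control brain and without 72 h brain, 6 without either pia library, 15 without control dura, 17 without 24 h dura, 117 without 24 h brain library 1 and 244 without library 2. The number that differed between pia and dura (195) was 72 with DESeq2, 10 with all 8 libraries, 11 with kit version and 304 with no filter on low counts, and ranged from 0 (without control brain) to 230. For the change in brain, 420 genes had an unadjusted p under 0.05 in edgeR with all 8 libraries and 144 with no filter. Both are fewer than this threshold passes if no gene changes. DESeq2 on the brain libraries alone called 1. In edgeR the number called in brain (1) was 0 with all 8 libraries, 107 with the gene list as a term, and 0 with no filter. It ranged from 0 to 1616 when 1 library was left out, with 13 and 11 without 24 h and control dura. Ccl17 turned to 0.57 with kit version in the fit, taken from a table that the barcodes contradict for 24 h dura and brain 24 h library 2. The number that differed from CAM_1 (28) was 5 with DESeq2 and 10 with cells thinned to 1000 UMIs. The number that differed from mDC2 (24) was 0 and 4. Without genes resting on 1 cell, an alternative chosen after seeing the data, 197 genes were called at 24 h and 187 between tissues. Genes lower than in CAM_1 numbered 7 in place of 2 where only libraries with 100 or more cells of both were used. With a floor of 3 UMIs in place of the pseudocount, also chosen after seeing the data, 8 genes were higher and 1 lower than in CAM_1, and 7 higher and 25 lower than in mDC2. The cause of these changes was not tested.

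Outside the microglia clusters Macro_2 made up 6.21% of control brain, 3.54% and 6.33% of 24 h brain, 11.4% of 72 h brain, and 41.5% and 23.2% of control and 24 h pia. Among macrophage clusters it was 7.94%, 4.33%, 19.5%, 28.8%, 53.4% and 39.5% in the same order, and 64.8% and 57.4% in control and 24 h dura. Among cells of 1000 UMIs or more it was 4.76% in 24 h brain library 2, 11.2% at 72 h, 42.5% and 23.9% in pia and 27.2% and 22.2% in dura.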
